A study of Mus musculus with 2 samples.

Results

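The 10 genes described here encode the cyclins and kinases that carry a cell through G1 and into S phase, with the phosphatase and the small subunit that act on them. They were taken by name, Ccnd1, Ccnd2, Ccnd3, Ccne1, Ccne2, Cdk2, Cdk4, Cdk6, Cdc25a and Cks1b, from 33225 gene symbols in a table of hepatic RNA-sequencing, and all 10 were found, each as a single row with no other symbol on it. The samples were livers of male C57BL/6 mice regenerating after partial hepatectomy (PH), the surgical removal of most of the liver. Both libraries carry an age of 4 months in the sample labels, where the design text of the series gives 3 months and the growth protocol 3 to 5 months. The paper's text gives 48 hr after PH as the time of collection. WT was the wild type and KO the PPARbeta-null mouse, which lacks the nuclear receptor PPARβ, and each genotype was sequenced as 1 library. The allele, the promoter behind it and the number of mice in a library are not given in the labels. No value below therefore carries an error between mice, and no test across samples was possible.

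In a resting hepatocyte the retinoblastoma (Rb) family of proteins holds E2f transcription factors inactive. Growth signals raise D type cyclins, which bind Cdk4 or Cdk6 and start the phosphorylation of Rb proteins. Free E2f then drives transcription of the E type cyclins, whose partner is Cdk2, and cyclin E/Cdk2 completes the phosphorylation and fires replication origins. Cdc25a removes inhibitory phosphates from Cdk2, and Cks1b encodes a small Cdk-binding subunit that also serves the ubiquitin ligase which destroys Cdk inhibitors. Induction of Ccnd1 is a classical mark of hepatocytes that have left the resting state after PH.

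The values are FPKM, in which fragments are divided by transcript length and by library size, and can be compared between genes because they are set per length. The KO library held less of the E cyclins, of Cdk2, of Cdc25a and of Cks1b, and nearly as much or more of Ccnd1 and Cdk4. In total, 5 of the 10 genes were at least 2-fold lower in KO, beside 13.4% of the 15728 genes whose mean FPKM reached 0.1. None was at least 2-fold higher in KO, beside 2.79% of those genes. Lower in KO by any amount were 9 of the 10, beside 74.8%. As log2 KO/WT, the median of the 10 genes, with 0.1 FPKM added to each value, was -0.98, and that of all genes over the same minimum was -0.25. In whole liver, fewer cells of a type and less RNA per cell cannot be told apart.

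The targeted gene Ppard had 2.67 FPKM in WT and 2.42 FPKM in KO, which is 1.10 as WT/KO with a 95% counting interval from 0.962 to 1.26, so its mRNA level did not mark the library labelled KO. Among single-exon genes, low FPKM values tended to recur in steps, each taken as 1 fragment. From these steps an FPKM of 1 on a transcript of 1 kb stood for an estimated 52.6 fragments of WT and 53.2 of KO. The fit to steps was loose, with a mean cosine of 0.242 in WT and 0.253 in KO, where exact steps would give 1. With the longest annotated transcript of each gene, the values of the 10 genes rested on about 47.7 fragments (Ccne2 in KO) to about 4673 (Ccnd1 in KO). The 95% counting intervals below come from these estimates and cover counting error only. The libraries also differed as a whole, with a median WT/KO ratio of 1.18 over the 11724 genes whose mean FPKM reached 1, called expressed genes here. Aligning the libraries on that median left 8 of the 10 genes lower in KO, with Ccnd1 and Cdk4 the higher ones.

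**Figure D1:**
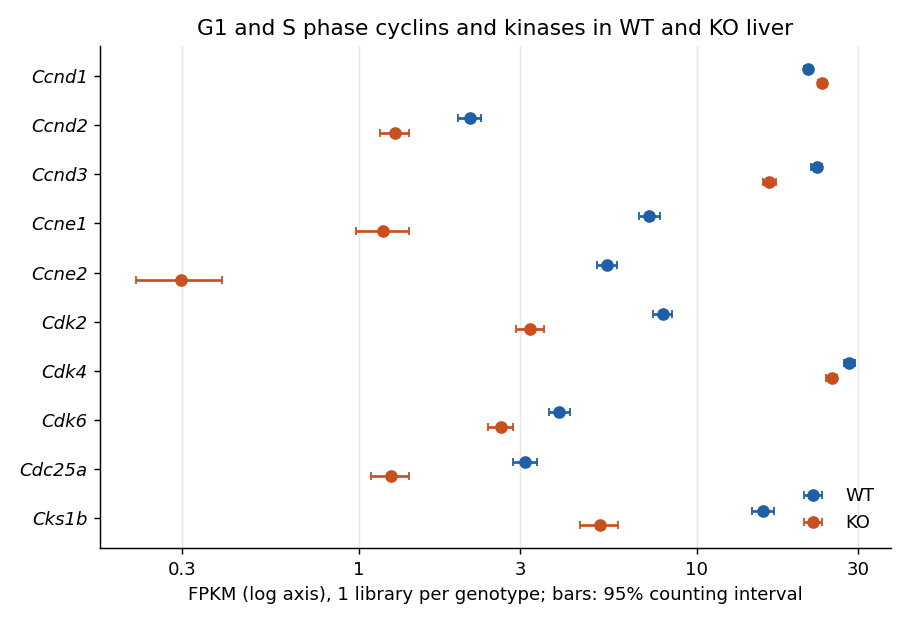
FPKM of each gene in the WT library (blue) and the KO library (orange) on a log axis, with 95% counting intervals as bars. Ccne2 lies farthest apart, at 5.42 in WT and 0.298 in KO, while Ccnd1 and Cdk4 lie close together above 20.

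The promoters are shown because E2f is the textbook regulator of several of these genes, and so that the 4 members at least 2-fold lower in KO for which a window was found can be compared letter by letter. RefSeq windows on GRCm38.p6, from 250 bases before to 50 bases after the annotated start, were found for 7 of the 10 genes, in 8 windows, with none for Ccnd1, Ccnd2 and Ccne2. They were searched on both strands for an E2f motif in 4 spellings, TTTCCCGC, TTTCGCGC, TTTGCCGC and TTTGGCGC, of which no 2 can match at the same position and strand. The motif was present in 2.26% of the 32851 windows of this length in the mouse table. Among the members it was present in Cdk2 and in Cdc25a. Below are the 250 bases before the start of these genes, 5′ to 3′ on the strand of the gene, with the motif in capitals, and those of Ccne1 and Cks1b, which held none of the 4 spellings. They lie at chr10:128705052-128705301 (minus strand), chr9:109875329-109875578 (plus strand), chr7:38107491-38107740 (minus strand) and chr3:89418292-89418541 (minus strand).
Cdk2: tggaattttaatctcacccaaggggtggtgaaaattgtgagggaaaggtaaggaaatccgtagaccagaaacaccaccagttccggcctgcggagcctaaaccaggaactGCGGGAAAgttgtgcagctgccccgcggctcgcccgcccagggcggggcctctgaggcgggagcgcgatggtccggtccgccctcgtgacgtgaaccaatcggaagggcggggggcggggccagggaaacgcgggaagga
Cdc25a: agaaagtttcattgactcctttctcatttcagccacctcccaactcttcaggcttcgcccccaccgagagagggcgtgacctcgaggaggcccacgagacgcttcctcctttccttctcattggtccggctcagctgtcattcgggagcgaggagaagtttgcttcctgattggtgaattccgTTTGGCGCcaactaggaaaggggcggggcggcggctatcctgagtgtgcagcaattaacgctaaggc
Ccne1: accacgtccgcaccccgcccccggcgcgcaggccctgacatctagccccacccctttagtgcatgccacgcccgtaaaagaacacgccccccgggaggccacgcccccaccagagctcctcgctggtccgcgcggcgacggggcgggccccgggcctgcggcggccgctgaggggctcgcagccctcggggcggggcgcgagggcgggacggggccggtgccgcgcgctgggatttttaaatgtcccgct
Cks1b: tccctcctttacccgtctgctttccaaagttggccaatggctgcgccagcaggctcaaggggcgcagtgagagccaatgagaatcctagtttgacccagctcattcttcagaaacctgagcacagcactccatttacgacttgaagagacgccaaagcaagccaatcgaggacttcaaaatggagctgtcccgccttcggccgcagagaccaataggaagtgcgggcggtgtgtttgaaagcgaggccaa

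In Cdk2 the match begins 140 bases before the start and reads GCGGGAAA, the reverse complement of TTTCCCGC. In Cdc25a the match TTTGGCGC begins 67 bases before the start. A match describes these letters only, and the absence of the 4 spellings from the windows of Ccne1, Cks1b, Ccnd3, Cdk4 and Cdk6 says nothing about binding of E2f to these genes.

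The D type cyclins, which couple growth signals to the cycle, came close to the same total in both libraries. Ccnd1 (NCBIM37, chromosome 7, 152115836 to 152125774, minus strand, 5 exons in the longest transcript) had 21.3 FPKM in WT and 23.5 FPKM in KO. It was the single member higher in KO, with a WT/KO ratio of 0.909 (95% counting interval 0.872 to 0.948). Among the genes whose mean FPKM reached 1, 85.3% had a lower log2 KO/WT than Ccnd1.

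Ccnd3 (chromosome 17, 47642000 to 47736632, plus strand, 7 exons) had 22.6 FPKM in WT and 16.4 FPKM in KO, a ratio of 1.38 (1.30 to 1.47). Ccnd2 (chromosome 6, 127075797 to 127101066, minus strand, 5 exons) was much scarcer, with 2.13 FPKM in WT and 1.28 FPKM in KO and a ratio of 1.67 (1.47 to 1.90). The D cyclins thus differed among themselves in direction, with Ccnd2 and Ccnd3 lower and Ccnd1 higher in KO. Summed, they had 46.1 FPKM in WT and 41.1 FPKM in KO.

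The partners of the D cyclins differed less between the libraries than the kinase of the E cyclins. Cdk4 (chromosome 10, 126500590 to 126504976, plus strand, 8 exons) was the most abundant of the 10 genes in both libraries, at 28.3 FPKM in WT and 25.1 FPKM in KO. It shares exon bases with a more abundant neighbour, given below. The part of that neighbour in the level of Cdk4, and in ratios that use it, was not tested. The WT/KO ratio of Cdk4 was 1.13 (1.07 to 1.19), and its interval held the median ratio of expressed genes, 1.18. Aligning the libraries on that median gave 0.956, a turn of direction within counting error. Cdk6 (chromosome 5, 3343893 to 3523218, plus strand, 8 exons) had 3.92 FPKM in WT and 2.63 FPKM in KO, a ratio of 1.49 (1.34 to 1.67). After the same alignment the ratio of Cdk6 was 1.27.

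Cdk2 (chromosome 10, 128134995 to 128142107, minus strand, 8 exons), the partner of the E and A type cyclins, had 7.92 FPKM in WT and 3.22 FPKM in KO. Its ratio was 2.46 (2.20 to 2.77), and 5.43% of expressed genes had a lower log2 KO/WT. The intervals of Cdk2 and of Cdk4 and Cdk6 did not overlap.

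The E type cyclins showed the largest ratios of the 10 genes. Ccne1 (chromosome 7, 38883003 to 38892553, minus strand, 12 exons) had 7.23 FPKM in WT and 1.18 FPKM in KO, a WT/KO ratio of 6.12 (5.05 to 7.44). Ccne2 (chromosome 4, 11118498 to 11131926, plus strand, 12 exons) had 5.42 FPKM in WT and 0.298 FPKM in KO, a ratio of 18.2 (13.5 to 24.7). Among expressed genes, 1.94% had a lower log2 KO/WT than Ccne1, and 1.02% a lower one than Ccne2. The intervals of these paralogs did not overlap, and Ccne2 was the lower of the pair in both libraries. Together they summed to 12.6 FPKM in WT and 1.48 FPKM in KO, a ratio of 8.55.

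The phosphatase and the small subunit lay between the kinases and the E cyclins. Cdc25a (chromosome 9, 109778083 to 109796392, plus strand, 15 exons) had 3.10 FPKM in WT and 1.24 FPKM in KO, a ratio of 2.50 (2.14 to 2.91). Cks1b (chromosome 3, 89219394 to 89222305, minus strand, 3 exons) had 15.7 FPKM in WT and 5.16 FPKM in KO, a ratio of 3.04 (2.62 to 3.55). The ratios of Cdc25a and Cdk2 differed by less than the width of either interval. With the libraries aligned on the median of expressed genes, Cdk2, Cdc25a and Cks1b stood at 2.09, 2.12 and 2.58.

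**Figure D2:**
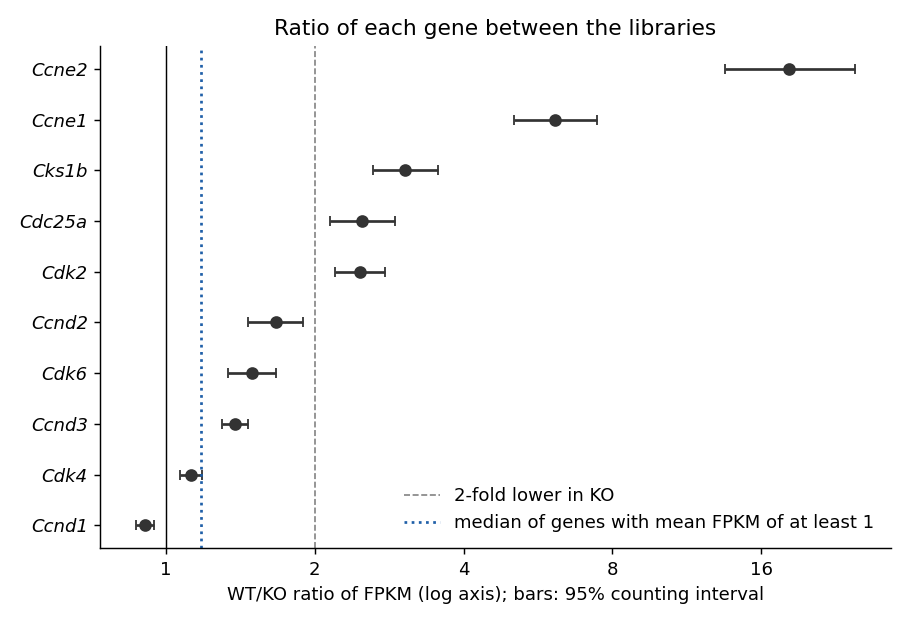
WT/KO ratio of FPKM of each gene on a log axis, with 95% counting intervals, a dashed line at 2-fold and a dotted line at the median ratio of 1.18 over genes whose mean FPKM reached 1. In the values as deposited, Ccne2, Ccne1, Cks1b, Cdc25a and Cdk2 lie right of the dashed line with their whole intervals, and Ccnd1 is the gene left of 1.

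The order of the 10 genes by level changed between the libraries. In WT it ran Cdk4, Ccnd3, Ccnd1, Cks1b, Cdk2, Ccne1, Ccne2, Cdk6, Cdc25a and Ccnd2. In that order Cdk2 and Ccne1 did not differ beyond counting error, with a ratio of 1.10 (0.996 to 1.21). In KO it ran Cdk4, Ccnd1, Ccnd3, Cks1b, Cdk2, Cdk6, Ccnd2, Cdc25a, Ccne1 and Ccne2. Here Ccnd2 and Cdc25a, at a ratio of 1.03 (0.873 to 1.21), and Cdc25a and Ccne1, at 1.05 (0.844 to 1.31), did not differ beyond counting error. The E cyclins stood above Cdk6 in WT and were the lowest of the 10 in KO.

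**Figure D3:**
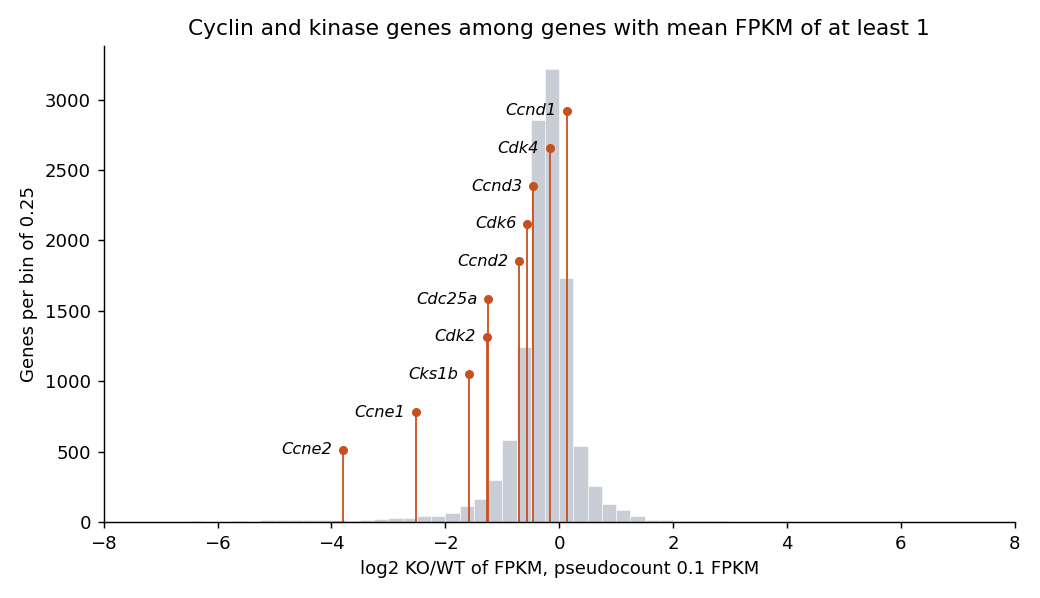
Number of genes whose mean FPKM reached 1 in bins of log2 KO/WT (bars), with the 10 genes as orange stems whose height carries no value. The axis runs from -8 to 8, with 3 genes outside it, and Ccne2, Ccne1 and Cks1b lie in the left tail while Ccnd1 and Cdk4 lie right of the median of -0.24.

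Ratios between members within a library do not depend on how the libraries are scaled. Ccnd1 made up 46.3% of the summed D cyclin FPKM in WT and 57.0% in KO, Ccnd3 49.1% and 39.9%, and Ccnd2 4.63% and 3.11%. The most abundant D cyclin was thus Ccnd3 in WT and Ccnd1 in KO. D cyclins related to their kinases Cdk4 and Cdk6 as 1.43 in WT and 1.48 in KO, nearly the same value. The E cyclins related to Cdk2 as 1.60 in WT and 0.460 in KO, so that their sum stood above the kinase in WT and below it in KO.

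Within the pairs, Ccne1 stood to Ccne2 as 1.33 in WT and 3.96 in KO, and Cdk4 to Cdk6 as 7.22 and 9.56. Cks1b stood to Cdk2 as 1.98 and 1.60, a narrower difference. The comparison of D with E cyclins and that of Cdk4 plus Cdk6 with Cdk2 were chosen after the values were seen. D cyclins stood to E cyclins as 3.65 in WT and 27.8 in KO, and Cdk4 plus Cdk6 to Cdk2 as 4.06 and 8.63. These are mRNA ratios, and the protein levels and complexes were not measured in these libraries.

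**Figure D4:**
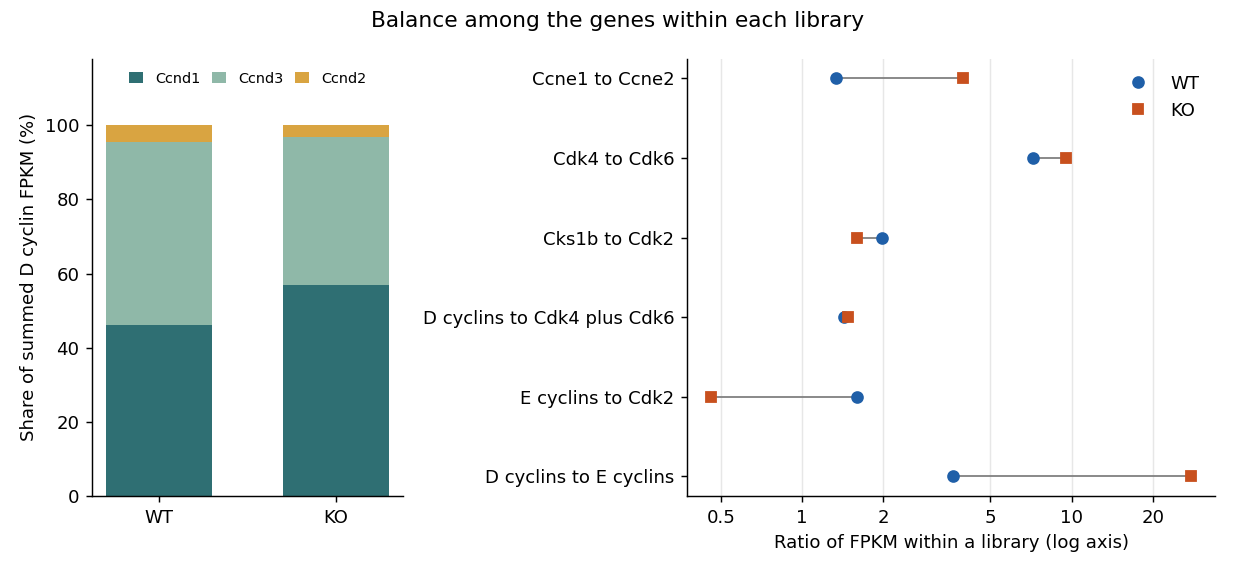
Left, share of each D cyclin in the summed D cyclin FPKM (%) of the WT and KO libraries. Right, ratios of FPKM between members within a library on a log axis, WT as blue circles and KO as orange squares, where D cyclins to Cdk4 plus Cdk6 nearly coincide (1.43 and 1.48) and D cyclins to E cyclins lie farthest apart (3.65 and 27.8).

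Several of these genes share exon bases with a neighbour on the opposite strand, and the library kit named in the labels does not mark strand, so fragments from shared bases can belong to either gene. In Ccnd1, 21.3% of exon bases are shared with Oraov1, which had 7.55 FPKM in WT and 6.81 FPKM in KO. In Cdk4, 18.6% are shared with Tspan31, which was more abundant than Cdk4 itself, at 121 in WT and 139 in KO. In Ccne2, 17.4% are shared with Ints8, at 6.92 and 6.94, which was above Ccne2 in both libraries. In Ccnd3, 15.7% are shared with Bysl, at 6.88 and 6.59. The part of the neighbours in the values of these 4 genes was not tested. Ccne1, Cdk2 and Cdc25a had their loci to themselves. In Cdk6, 1.61% are shared with Gm17590, which was listed at 0 in both libraries. Ccnd2 overlaps 9330179D12Rik, also listed at 0, without sharing an exon base. Cks1b shared no exon base, and its start lies 59 bases from that of Shc1 on the other strand.

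The other members of the cyclin and Cdk families, most of which act in transcription, splicing or mitosis, had medians near that of all genes. These medians do not describe each gene, and the mitotic cyclins given below were far lower in KO. Of the 19 other cyclins whose mean FPKM reached 0.1, 17 were lower in KO, beside 74.8% of all genes, and 5 at least 2-fold lower, beside 13.4%. Their median log2 KO/WT was -0.28. Aligned on the median of expressed genes, 13 were lower, beside 53%, and 6 higher. By the mean of both libraries the most abundant were Ccni, at 48.1 FPKM in WT and 46.4 FPKM in KO, and Ccnl2 and Ccnl1, which bind splicing-associated Cdks, at 35.8 and 35.0 and at 15.0 and 17.1. Ccna2, which takes over Cdk2 during S phase, had 15.3 FPKM in WT and 0.227 FPKM in KO, a ratio of 67.2 (48.2 to 95.9). That ratio was above those of Ccne1 and Ccne2, and the intervals did not overlap. The mitotic cyclins Ccnb1 and Ccnb2, named after their values were seen, had 20.2 FPKM in WT and 0.0562 FPKM in KO, and 18.4 and 0.0907. Their WT/KO ratios were 360 (186 to 953) and 203 (105 to 538). In the values as deposited, 2 of the 19 other cyclins were higher in KO.

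Of 14 other Cdks, 11 were lower in KO, beside 74.8% of all genes, and 1 at least 2-fold lower, beside 13.4%. Their median was -0.32, and 10 were lower after the alignment, beside 53%. The 1 at least 2-fold lower was the mitotic kinase Cdk1, the most abundant of them in WT. It had 41.9 FPKM in WT and 0.434 FPKM in KO (ratio 96.6, 75.6 to 124). Cdk9, the kinase of transcription elongation, had 15.3 and 16.0, and the Mediator kinase Cdk8 had 16.3 and 12.8. The ratio of Cdk2, 2.46, was above those of Cdk8 and Cdk9 (1.27 and 0.958) and below that of Cdk1.

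Cdk inhibitors brake the kinases described here. Of the 8 measured, 7 were lower in KO, beside 74.8% of all genes, 5 of them at least 2-fold, beside 13.4%. The counts were the same after the alignment, where 53% of all genes were lower. Their median of -1.09 depends on the low genes among them, and was -0.51 and -1.96 with 1 and 0.01 FPKM added, and -2.84 with the minimum raised to 1 FPKM. Cdkn1a, a Cip/Kip inhibitor of Cdk2, was the exception and the most abundant, at 33.5 FPKM in WT and 40.4 FPKM in KO, a WT/KO ratio of 0.829 (0.792 to 0.868). Cdkn1b, of the same family, had 9.28 and 5.04. Cdkn3, a phosphatase that acts on the activating phosphate of Cdk2, had 14.7 in WT and was listed at 0 in KO. Cdkn1a was thus above Cdk2 in both libraries, and Cdkn1b likewise.

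Of the 13 genes of the Rb and E2f families, which stand between D cyclins and E cyclins, all were lower in KO as deposited, beside 74.8% of all genes. At least 2-fold lower were 6, beside 13.4%. The median of the 13 was -0.85, and it moved to -0.54 with 1 FPKM added and to -0.62 with the libraries aligned on expressed genes. The 3 most abundant were Tfdp1, the E2f partner, at 20.2 and 10.1, E2f4, in a row that also names Elmo3, at 12.8 and 12.3, and E2f6, at 8.11 and 7.86. Tfdp1 stood at the 2-fold line with a ratio of 2.00. The others at least 2-fold lower, named after their values were seen, were Rbl1, E2f1, E2f2, E2f7 and E2f8. Their WT/KO ratios were 11.5, 6.80, 3.76, 6.43 and 14.6, with E2f7 under 1 FPKM in both libraries. E2f4 and E2f6 had ratios of 1.05 and 1.03, below the median of expressed genes. With the libraries aligned on that median 10 of the 13 were lower, beside 53%, and 3 higher, and 5 were at least 2-fold lower. Of 17 genes that control Cdk activity or turn cyclins over, 16 were lower, beside 74.8% of all genes, with a median of -0.47. After the alignment, 14 were lower, beside 53%. As deposited, 6 of the 17 were at least 2-fold lower, beside 13.4%. The 6 are not all activators of Cdks, since they include Wee1 and Pkmyt1, named because these kinases inhibit Cdks. Of the 17, Cks2, the paralog of Cks1b, had 35.2 FPKM in WT and 12.6 FPKM in KO. Its ratio of 2.80 (2.51 to 3.12) had an interval that overlapped that of Cks1b. Skp1a and Rbx1, constant subunits of the SCF ubiquitin ligase, had 129 and 111 and 27.9 and 23.8.

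Genes listed as inducers of the D cyclins did not share a direction. Of 11, 7 were lower in KO, beside 74.8% of all genes, and 4 higher. At least 2-fold lower was 1, beside 13.4% (Foxm1, named after its values were seen, which also acts later in the cycle). At least 2-fold higher were 2, beside 2.79%. The median of -0.13 turned to 0.10 with the libraries aligned on expressed genes, and 5 were then lower, beside 53%, and 6 higher. The growth factor receptor Egfr had 113 FPKM in WT and 120 FPKM in KO, the Wnt effector Ctnnb1 93.6 and 72.8, and the immediate early factor Egr1 30.2 and 107. In the other list, all 18 genes of S phase entry were at least 2-fold lower in KO, beside 13.4% of all genes. As deposited their median was -2.93 (-2.28 with 1 FPKM added), and after the alignment 17 were at least 2-fold lower. Pcna, the sliding clamp of replication, had 66.8 and 13.0, and Rrm2 and Tk1, which supply deoxynucleotides, had 47.5 and 1.03 and 27.9 and 2.32. The lists of S phase entry and of other cyclins both hold Ccna2.

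**Figure D5:**
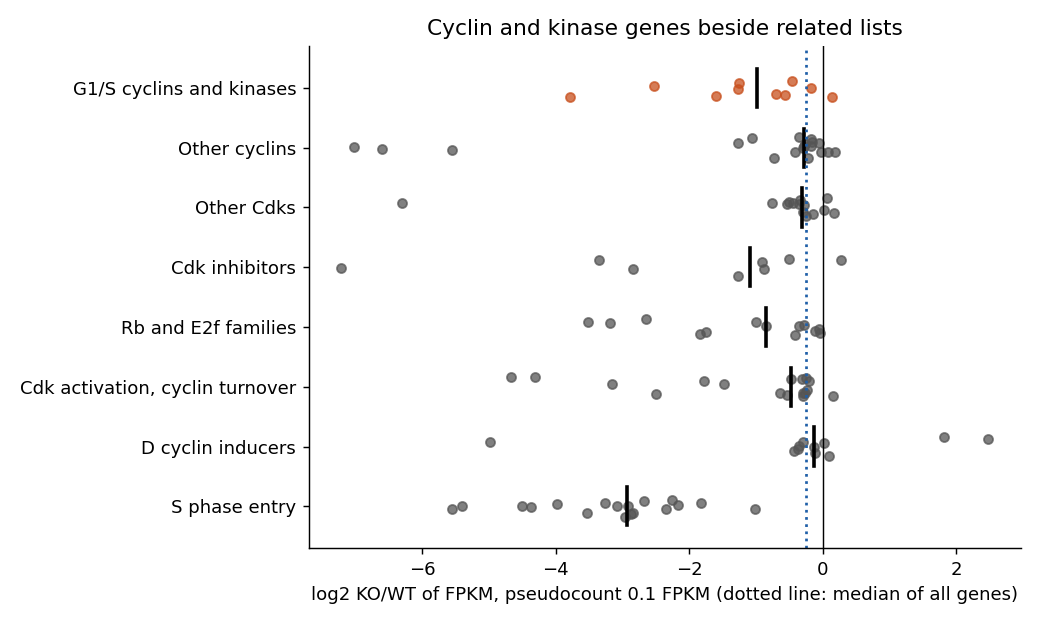
log2 KO/WT of FPKM, with 0.1 FPKM added, for each gene whose mean FPKM reached 0.1 (points, with a vertical offset that carries no value) in the 10 cyclin and kinase genes and 7 related lists, with the median of each list as a black bar and that of all genes as a dotted line. The 10 genes have a median of -0.98, between -0.28 of the other cyclins and -2.93 of S phase entry.

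Markers of other liver cells are given beside the 74.8% of all genes that were lower in KO, and their part in the values of the 10 genes was not tested. Counts cover markers whose mean FPKM reached 0.1, and sums cover every marker found. Lower in KO were 8 of 9 macrophage markers with a summed FPKM of 78.8 in WT and 45.5 in KO, 7 of 8 endothelial markers with 52.0 and 38.0, and 7 of 7 stellate cell markers with 45.3 and 17.5. The highest of each were Cd5l at 18.4 and 10.8, Clec4g, in a row that also names Gm9814, at 21.8 and 18.9, and Col3a1 at 14.5 and 3.18. Also lower were 5 of 5 cholangiocyte markers, summing to 29.8 and 25.7 with Spp1 at 24.5 and 22.7, and 3 of 4 erythroid markers, summing to 296 and 252 with Hba-a1 at 139 and 113. Of 10 lymphocyte markers 4 reached the minimum and were lower, and the 10 summed to 1.88 and 1.01 with Ptprc at 0.770 and 0.506. Of the 6 under the minimum, Cd3e and Cd8a, named after their values were seen, were higher in KO. Of 3 neutrophil markers over the minimum 2 were lower. Of the 7 found 3, named after their values were seen as Ly6g, Mpo and Camp, were listed at 0 in both libraries, and the list summed to 12.9 and 6.91 with S100a8 at 6.68 and 3.33. Of 9 hepatocyte markers 4 were lower and 5 higher in KO, summing to 14499 and 15898, with Serpina1a at 3337 and 4039. After the alignment, 53% of all genes were lower in KO. Lower then were 8 of 9 macrophage, 5 of 8 endothelial, 6 of 7 stellate cell, 3 of 5 cholangiocyte, 2 of 4 erythroid, 4 of 4 lymphocyte, 2 of 3 neutrophil and 2 of 9 hepatocyte markers.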

How the data were processed

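RNA of regenerating liver was measured in 1 WT and 1 KO library. The authors aligned reads to mouse NCBI37 (mm9) with TopHat 2.0.0, assembled transcripts with Cufflinks 1.3.0 and ran Cuffdiff, and the deposited FPKM values are 1 estimate per locus and library. The labels describe paired end reads and the paper's methods single end reads. The authors' table also holds their own comparison, a log2 fold value, a score (the test statistic), a p-value and a q-value, none of which was used. Of 38016 loci, the 21 marked HIDATA were left out. Rows naming several symbols gave each symbol the joint value, and rows of a symbol were summed.

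Calls rest on a WT/KO or KO/WT ratio of FPKM of at least 2 among genes whose mean FPKM reached 0.1, and expressed genes have a mean FPKM of at least 1. For log2 values 0.1 FPKM was added as a pseudocount, so that changes of low genes are understated. Depth was estimated from 234 (WT) and 222 (KO) values of single-exon genes of at least 600 nt. Exact conditional binomial 95% intervals of ratios, and exact Poisson 95% intervals of levels, used fragments estimated from that depth and the longest GENCODE vM1 transcript, and cover counting error only. Coordinates of genes are those of GENCODE vM1 on NCBIM37, counted from 1, and 32451 of the symbols were found there. The processing was tested on simulated libraries. Their low values were exact multiples of 1 fragment, unlike the loose steps of the deposited libraries, so the depth estimate for the deposited values was not tested. Scripts ran under Python 3.11.15 with scipy 1.17.1, pandas 2.3.3, numpy 2.4.6 and, for plots, matplotlib 3.10.9.

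The members and lists were chosen with earlier results of these data known. Besides the 10 members, the 3 genes of highest mean FPKM of each related list, Cdkn1a, Cdkn1b and Ccna2, and the highest gene of each marker list were named. Neighbours of the members were named by position. Cdk10, Fbxo31, Cdt1, Alb and Ahsp were listed but not analysed here. No per-sample column went unmapped. Alternatives changed the scaling, the fold, the pseudocount, the handling of rows or the minimum FPKM.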

Additional observations from a re-analysis of the deposited data

How the results depend on the processing

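No paired analysis was possible because each genotype has 1 library and no label links them, and no library could be left out. The median of the 10 genes ranged from -1.02 (pseudocount 0.01 FPKM) to -0.67 (pseudocount 1 FPKM), and 5 of them were at least 2-fold lower in KO under each scaling tried. With equal upper quartiles Cdk2 and Cdc25a stood at 2.06 and 2.09, close to that limit, and no interval was computed for the scaled ratios. The filters and handlings of rows could not change the count of 5. Each of the 10 genes was a single row of status OK with a mean FPKM above 1. With a fold of at least 1.5 there were 6, and with a fold of at least 3 there were 3. Over all genes, 2104 were at least 2-fold lower, 1019 with the minimum raised to 1 FPKM, 4314 with no filter, 4092 at 1.5-fold and 1001 at 3-fold. Scaling moved the split. As deposited, 2104 genes were at least 2-fold lower and 439 higher, with equal upper quartiles 1450 and 741, and centred on the median of expressed genes 1499 and 717. These scalings turned the WT/KO ratio of Cdk4 to 0.944 and 0.956 and the median of the D cyclin inducers to 0.12 and 0.10. For the other members, 14 of the ratios under those scalings moved beyond their counting interval without a change of direction. Ratios within a library were the same under every handling of rows, which could not differ with a single row per gene. Counting error limits Ccne2 in KO most, and the spread between mice is unknown.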

Other observations

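Fos and Foxm1 were chosen after their values were seen. Fos, which with Jun forms the AP-1 factor of the early response to PH, had 1.37 FPKM in WT and 8.10 FPKM in KO, a WT/KO ratio of 0.169 (95% counting interval 0.142 to 0.201). Jun, named as its partner, had 11.6 and 10.6. Foxm1, a factor that also acts later in the cycle, had 7.62 and 0.144, in a row that also names 4933413G19Rik.

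Among the Cdk inhibitors, also chosen after their values were seen, the INK4 genes Cdkn2c and Cdkn2d, whose products bind Cdk4 and Cdk6, had 11.6 FPKM in WT and 1.05 FPKM in KO, and 3.67 and 0.425. Their ratios of 11.0 (9.29 to 13.3) and 8.62 (5.80 to 13.0) were above those of Cdk4 and Cdk6, and the intervals did not overlap.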
